A study of Homo sapiens with 19 samples.

Results

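CLSTN1, APP and APLP2 encode calsyntenin-1, the amyloid precursor protein and amyloid precursor-like protein 2, and their splicing, their RNA level and the AKAP8 peaks over them are described here in epithelial and mesenchymal human mammary cells. The 3 genes were taken by name. Of 100238 distinct splicing events in 11998 genes in the 15 event tables of the series, 31 belonged to them, with 11 in CLSTN1, 12 in APP and 8 in APLP2. The study singled out the 57 nt exon of CLSTN1 on these same libraries, so the values of that exon given here are not independent of that choice.

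All cells were of the HMLE/Twist-ER line, which are human mammary epithelial cells immortalized with TERT that carry the transcription factor Twist fused to the estrogen receptor. Without drug the line is epithelial (EPI), and in 20 nM tamoxifen, which activates the fusion protein, it goes through an epithelial-mesenchymal transition (EMT) to a mesenchymal state (MES). Cells of every RNA-seq group also expressed a stably integrated lentiviral shRNA, either a non-specific control or one against AKAP8, a nuclear protein that binds RNA. RNA-seq was done on 11 libraries of this single line, of which 3 were controls and 3 were knockdown libraries in EPI, and 3 were controls and 2 were knockdown libraries in MES. The study's methods describe them as biological replicates. Any spread between these libraries is a spread within a single cell line. AKAP8 eCLIP, in which RNA crosslinked to AKAP8 is precipitated and sequenced beside its input, was done in 2 replicates in each state. The study made 2 AKAP8 shRNAs, and the sources used here do not say which of them was sequenced.

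Calsyntenin-1 is a transmembrane protein of the secretory pathway that binds the light chain of the motor kinesin-1 and so links membrane cargo, vesicles with APP among them, to transport along microtubules. APP and APLP2 are transmembrane proteins with a similar build, and both are cut by alpha-, beta- and gamma-secretases. Alternative exons change their extracellular parts, and a Kunitz-type protease inhibitor domain is coded by a single cassette exon in each. The form of APP without that domain is typical of neurons, while other tissues mostly include it.

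The exons and sites on which the results turn are shown first, as they stand in GRCh37 on the transcribed strand and written 5′ to 3′. The 57 nt exon of CLSTN1 (exon 11 of the canonical transcript, chr1:9797556-9797612, minus strand) and the 30 nt exon (exon 3, chr1:9816539-9816568, minus strand) are shown because they were the CLSTN1 exons that differed. Capitals mark the exon and lower case 20 nt of the introns on each side. Both exons lie in coding sequence, and their lengths are multiples of 3.
CLSTN1 57 nt exon: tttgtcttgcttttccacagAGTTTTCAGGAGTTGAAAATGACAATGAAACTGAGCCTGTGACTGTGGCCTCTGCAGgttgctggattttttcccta
CLSTN1 30 nt exon: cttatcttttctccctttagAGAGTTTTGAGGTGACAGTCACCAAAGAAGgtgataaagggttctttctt

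The Kunitz-type exons of APLP2 (exon 7, chr11:129993507-129993674, plus strand) and APP (exon 7, chr21:27372330-27372497, minus strand) are shown because they are the matching exons of both genes and were spliced differently. Capitals again mark the exon. They are of equal length, and without gaps they were identical at 109 bases, or 64.9%.
APLP2 Kunitz exon: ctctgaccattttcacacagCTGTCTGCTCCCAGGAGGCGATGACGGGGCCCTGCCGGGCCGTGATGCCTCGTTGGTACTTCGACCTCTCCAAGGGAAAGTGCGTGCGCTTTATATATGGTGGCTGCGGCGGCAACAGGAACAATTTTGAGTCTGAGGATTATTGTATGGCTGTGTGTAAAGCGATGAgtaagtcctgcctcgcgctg
APP Kunitz exon: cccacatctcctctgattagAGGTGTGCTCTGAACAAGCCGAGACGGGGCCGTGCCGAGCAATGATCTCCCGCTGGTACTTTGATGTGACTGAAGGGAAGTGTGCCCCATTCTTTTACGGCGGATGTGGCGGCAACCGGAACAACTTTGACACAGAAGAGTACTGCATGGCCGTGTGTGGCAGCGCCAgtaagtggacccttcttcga

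In the libraries labelled as knockdown, AKAP8 was checked first, with gene levels taken as the summed junction reads of a gene scaled for library size. AKAP8 was at 244, 310 and 245 scaled reads in the EPI controls and at 121, 98.8 and 125 after knockdown, a log2 fold change of -1.20 ± 0.25 (SE) that missed the threshold in the limma fit (adjusted p = 0.066). In MES it was at 382, 196 and 248 in the controls and at 108 and 122 after knockdown (-1.20 ± 0.28, adjusted p = 0.032). The groups did not overlap in either state, and the share of all genes for which this holds was not computed. The MES call was lost without the first or the third MES control, either MES knockdown library or the first EPI control (adjusted p between 0.056 and 0.179), while the fold change stayed between -0.93 and -1.41 over the 19 alternatives.

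The cell state was checked with markers. Of 8 epithelial markers, 5 could be tested and all 5 were lower in MES controls, and of 7 mesenchymal markers 5 could be tested and all 5 were higher. After AKAP8 knockdown in EPI or in MES, none of these 10 passed the limma test, while 0 in EPI and 2 in MES had an unadjusted p under 0.05. The share of all genes at that unadjusted p was not computed. The libraries held 31258177 to 40852217 junction reads over skipped-exon events. The EPI controls entered both the knockdown comparison in EPI and the EPI against MES comparison, and 2 of the MES controls entered both the knockdown comparison in MES and the EPI against MES comparison, so the comparisons share libraries and are given side by side.

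Inclusion was measured as PSI, the percentage of transcripts that include an exon, from inclusion and skipping junction reads corrected for the length over which each can fall. An event was called when its Benjamini-Hochberg adjusted p (FDR) in a quasi-binomial test of the reads was under 0.05 and its PSI differed by at least 10 points. The dispersion in this test, the spread of reads between libraries, was drawn to a trend over all events of the type. An FDR therefore does not measure the spread of 1 exon alone. After knockdown in EPI the dispersion used was 8.90 for the APLP2 Kunitz exon, against 12.7 from its own libraries. For the CLSTN1 30 nt exon it was 3.51 against 0.087. All 29 events of the 3 genes listed for knockdown in EPI, 21 for knockdown in MES and 25 for EPI against MES had enough reads to be tested. After knockdown in EPI 2 events were called, both of them skipped exons, against 0.0588% of all skipped-exon events tested. After knockdown in MES 1 was called, against 0.0479%. Between EPI and MES controls 3 were called, against 1.4%. No APP event was called in any comparison by this test or by limma on the logit of PSI, and at an unadjusted p under 0.05 there were 1 after knockdown in EPI, 0 after knockdown in MES and 2 between the states. The share of all events at that unadjusted p alone was not computed. Limma on the logit of PSI called 0 skipped exons of any gene after either knockdown, so with it the calls after knockdown were lost.

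CLSTN1 included its 57 nt exon more often in MES than in EPI, and more often after AKAP8 knockdown in EPI. In the EPI controls its PSI was 34.4%, 34.3% and 30.4%, and in the EPI knockdown libraries 60.2%, 58.7% and 54.8%. Every knockdown library thus stood above every control. The means were 33.0% ± 2.3 (SD, n = 3) and 57.9% ± 2.8 (SD, n = 3), a rise of 24.9 points ± 2.1 (SE) with an FDR of 8.5e-11. The call held without any single library, with a rise of 23.6 to 26.5 points, and was lost with limma on the logit of PSI (FDR 0.90).

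In the MES controls the 57 nt exon was at 94.7%, 94.2% and 94.5%, so nearly all CLSTN1 transcripts contained it. The mean of 94.5% ± 0.3 (SD, n = 3) was 61.4 points ± 1.3 (SE) above the EPI controls (FDR 2.4e-87). In the MES knockdown libraries the exon was at 96.1% and 94.8%, against 94.7% and 94.2% in the 2 controls of that comparison. This difference of 0.99 points ± 0.69 (SE) did not pass the test (FDR 0.76), although the groups did not overlap, as for 23.9% of all skipped-exon events tested there. The MES controls already stood near the upper limit of PSI.

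The 30 nt exon of CLSTN1 was likewise lowest in EPI controls, at lower levels than the 57 nt exon. It was at 7.6%, 7.1% and 7.2% in the EPI controls and at 12.99%, 13.9% and 13.7% in the EPI knockdown libraries. The groups did not overlap, as was so for 6.21% of all skipped-exon events tested, and the difference of 6.2 points ± 0.3 (SE) did not pass the test (p = 0.0015, FDR 0.55, by the quasi-binomial test with limma-moderated dispersion). The reads that included it were few, 34 to 38 in each control and 76 to 128 in each knockdown library. In the MES controls the exon was at 43.95%, 38.4% and 36.2%, a rise of 32.2 points ± 2.3 (SE) over EPI that was called (FDR 2.3e-23). After knockdown in MES it was at 42.7% and 32.1%, which overlapped the controls (FDR 0.76).

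The other CLSTN1 events varied little. Of the 11, 5 were above 99% in every library with a value, and another pair, which skip overlapping forms of exon 18, stayed between 97.8% and 100%. An alternative 5′ splice site at exon 18 was used at 3.7% ± 0.8 (SD, n = 3) in EPI controls and 2.4% ± 0.7 (SD, n = 3) in MES controls (FDR 0.25). A pair of exons listed as mutually exclusive, exons 7 and 8, was tested after knockdown in EPI, at 55.8% ± 1.3 and 55.9% ± 1.5 (SD, n = 3). As single skipped exons, exon 8 was at 99.7% to 100% and exon 7 at 99.9% to 100% in every library with a value. The value of the pair is therefore not a share of transcripts that choose between them.

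**Figure D1:**
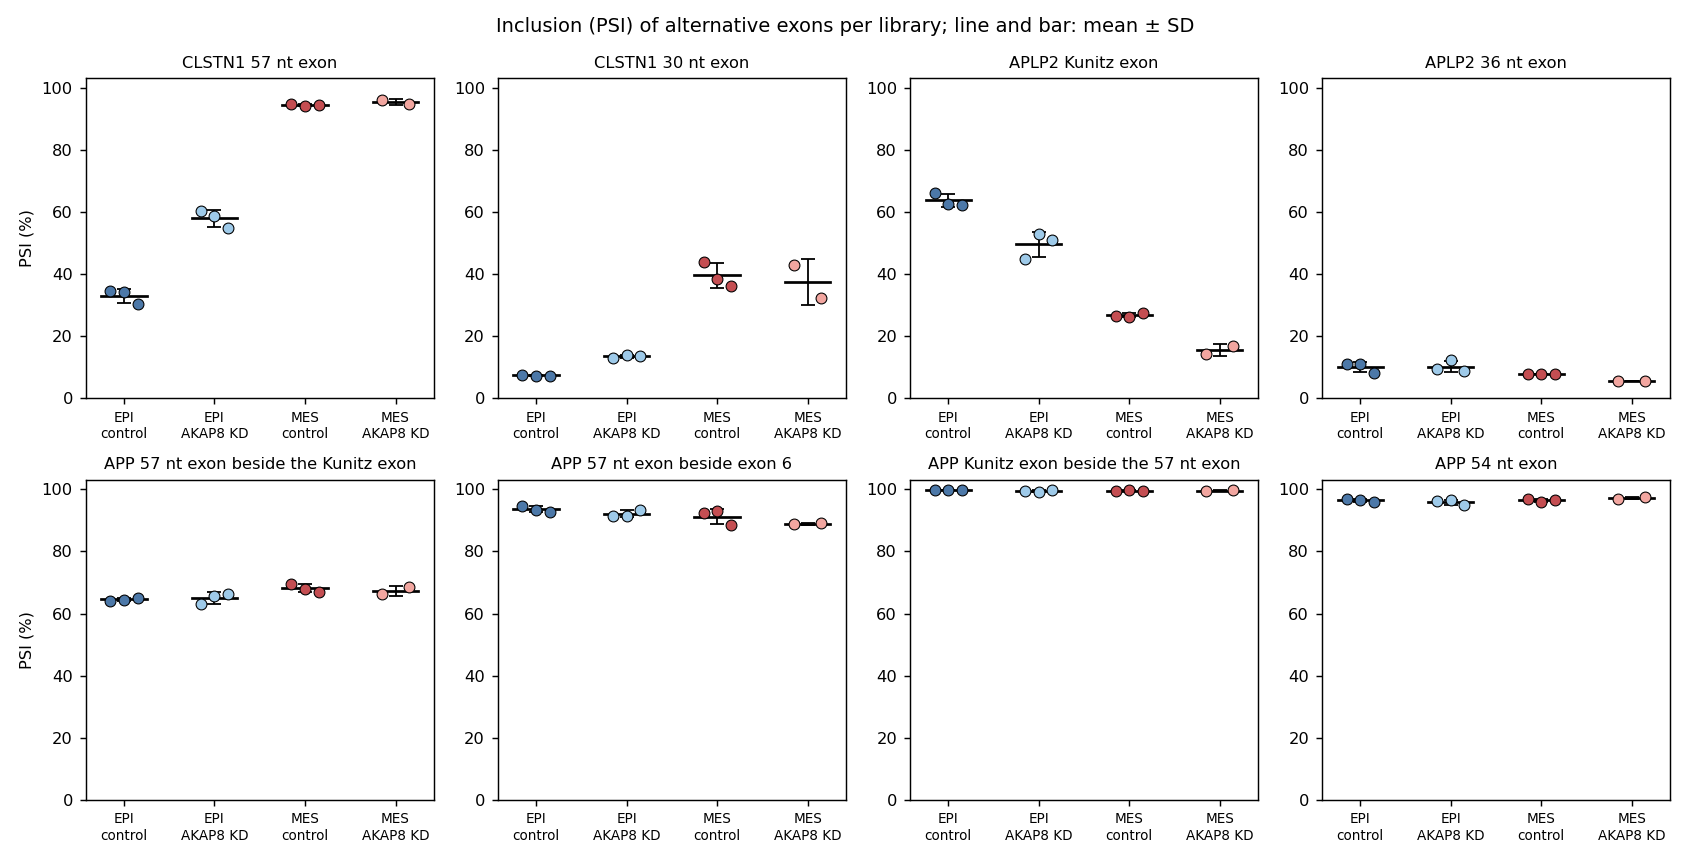
PSI in percent (y axis) of 8 exon measurements in CLSTN1, APLP2 and APP, with a point for each of the 11 RNA-seq libraries, a line for the mean and a bar for the SD of each group (x axis: EPI control, EPI AKAP8 knockdown, MES control, MES AKAP8 knockdown). The CLSTN1 57 nt exon goes from 33.0% in EPI controls to 57.9% after knockdown and 94.5% in MES controls, the APLP2 Kunitz exon goes down from 63.7% to 49.6% and 26.7%, and the APP panels stay within narrow ranges.

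APLP2 included its Kunitz-type exon less often in MES, and less often after AKAP8 knockdown in both states. Its PSI was 66.2%, 62.7% and 62.4% in the EPI controls and 44.9%, 52.8% and 50.9% after knockdown in EPI. No library of either group reached the other group. The means were 63.7% ± 2.1 and 49.6% ± 4.1 (SD, n = 3), a difference of -14.2 points ± 2.7 (SE) that was called (FDR 3.4e-06). Without any single library the call held, and with limma on the logit of PSI it was lost (FDR 0.90).

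In the MES controls the APLP2 exon was at 26.5%, 26.1% and 27.4%, a difference of -37.1 points ± 1.3 (SE) from the EPI controls (FDR 3.5e-68), a call that limma on the logit of PSI did not make (FDR 0.080). In the MES knockdown libraries it was at 14.1% and 16.9%. Both lay below the controls of that comparison, the difference was -10.8 points ± 1.4 (SE), and it was called (FDR 5.8e-06). This call rests on few libraries. It was lost without the first MES control (FDR 0.067), without the first MES knockdown library (-9.4 points, FDR 0.073), with libraries blocked by their place in the list (FDR 0.24) and with limma on the logit of PSI (FDR 0.92), and it held with the third MES control added (-11.2 points, FDR 6.1e-05).

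The 36 nt exon of APLP2 (chr11:130007151-130007186, plus strand, coding), whose use bears on the attachment of a chondroitin sulfate chain to the protein, was rare. It was at 10.8%, 11.01% and 8.1% in EPI controls, 9.4%, 12.2% and 8.8% after knockdown in EPI, 7.8%, 7.7% and 7.6% in MES controls and 5.4% and 5.5% after knockdown in MES. The MES libraries were close to each other within each group, and knockdown and control did not overlap there, as for 23.9% of all skipped-exon events in that comparison. None of its differences was called (FDR 0.31 for EPI against MES, 0.76 for knockdown in MES and 0.87 for knockdown in EPI). The 153 nt exon, exon 13, was included at 96.4% ± 0.3 in EPI controls and 94.7% ± 1.0 after knockdown (SD, n = 3), and at 95.3% ± 0.7 and 93.3% ± 0.8 in the MES comparison (SD, n = 2), again with no call (FDR 0.71 and 0.76). Of the other 5 APLP2 events, 4 were above 99% in every library with a value, and the skipping of exon 14, tested in EPI alone, ranged from 92.1% inclusion in 1 knockdown library to 100% (FDR 0.71). Among the events above 99% was a second measurement of the Kunitz exon, against skipping as far as exon 14 (99.6% to 100%).

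APP, in contrast to APLP2, kept its Kunitz-type exon in nearly all transcripts of these cells. Measured between exons 6 and 9, the exon had a PSI of 96.99% ± 0.55 in EPI controls, 96.5% ± 0.4 after knockdown and 95.5% ± 1.3 in MES controls (SD, n = 3), and 94.6% ± 0.3 after knockdown in MES (SD, n = 2). None of these differences passed the test (FDR 0.48 for EPI against MES, 0.71 and 0.76 after knockdown). This measurement does not count the reads that join the Kunitz exon to the 57 nt exon. Its PSI can therefore understate inclusion and change with the use of the 57 nt exon. Beside the 57 nt exon, where the Kunitz exon had most reads, its lowest value in the 11 libraries was 99.3%. Reads that join exon 6 directly to exon 9 are those of the short form without either exon. They numbered 41 to 63 per library in EPI controls and 59 to 105 after knockdown in EPI. In MES they numbered 47 to 75 in controls and 82 and 91 after knockdown. These counts are not scaled, and the summed APP reads of a library ran from 16708 to 38953. The library with 105 had the highest sum.

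The 57 nt exon of APP, exon 8 (chr21:27369675-27369731, minus strand), codes for the OX-2 stretch next to the Kunitz domain. Its PSI varied over more points than that of any other APP exon measured here. With the Kunitz exon as its neighbour it was at 64.2%, 64.5% and 64.9% in EPI controls, 63.0%, 65.6% and 66.4% after knockdown, 69.5%, 68.0% and 67.0% in MES controls and 66.3% and 68.5% after knockdown in MES. The MES controls all stood above the EPI controls, as for 11.5% of all skipped-exon events tested, and the difference of 3.6 points ± 0.8 (SE) was not called (FDR 0.54).

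A second measurement took as skipping the reads that joined exon 6 to the exon after the 57 nt one. In the EPI controls these numbered 41, 62 and 63. Inclusion reads numbered 1140, 1357 and 1258, of which only 4, 1 and 2 joined exon 6 to the 57 nt exon. The rest lay at its other junction, which transcripts with the Kunitz exon share. This PSI is therefore not the inclusion of the 57 nt exon where exon 6 skips the Kunitz exon. It was 92.7% ± 0.6 and 89.0% ± 0.3 in control and knockdown libraries of the MES comparison (SD, n = 2). This difference of -3.7 points ± 0.5 (SE) had the greatest size of the APP events tested after knockdown in MES and was not called (FDR 0.76). The matching difference after knockdown in EPI was -1.4 points ± 0.9 (SE, FDR 0.71). The third MES control, at 88.4%, lay below both knockdown libraries. Events that share an exon share junction reads, so the measurements of exons 7 and 8 are not separate evidence. The 54 nt exon, exon 15 (chr21:27277336-27277389, minus strand), which is left out in some forms of APP, was included at 95.1% to 97.4% in all libraries. Of the 12 APP events, 7 were above 99% in every library with a value.

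**Figure D2:**
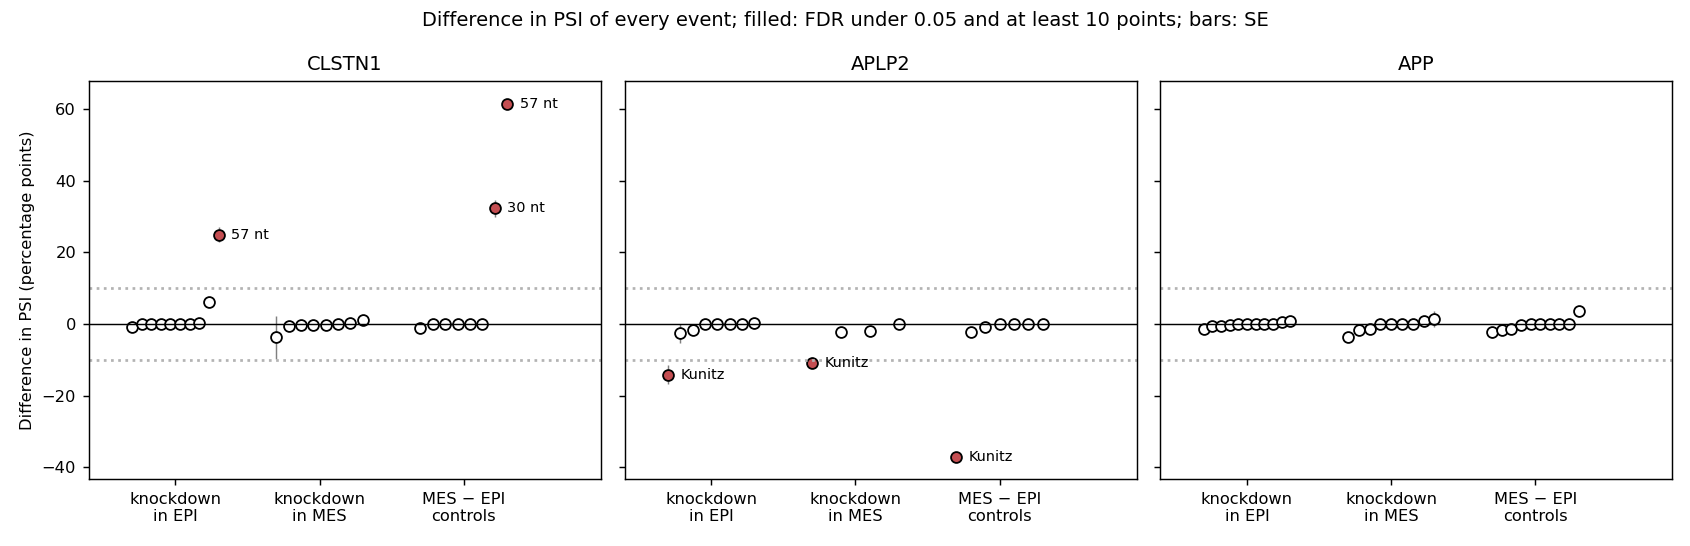
Difference in PSI in percentage points (y axis) of every event of CLSTN1, APLP2 and APP in the 3 comparisons (x axis), as knockdown minus control or MES minus EPI controls, with the SE as a bar; events within a comparison are ordered by their difference. Filled points were called, dotted lines mark 10 points either way, and all filled points belong to the 57 nt and 30 nt exons of CLSTN1 and the Kunitz exon of APLP2.

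Over all events of the 3 genes, the median absolute difference in PSI was 0.12 points after knockdown in EPI, 0.69 points after knockdown in MES and 0.12 points between the states. Groups did not overlap for 5 of 26 skipped-exon events after knockdown in EPI, 8 of 19 after knockdown in MES and 7 of 23 between the states, beside 6.21%, 23.9% and 11.5% of all skipped-exon events.

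Whether knockdown acted differently in the 2 states was tested in a single fit of all 11 libraries, in which 0.00993% of the skipped-exon events tested passed. The fit compares changes in the log odds of inclusion, the log ratio of inclusion to skipping reads, and not in PSI points. For the CLSTN1 57 nt exon the change was 24.9 points in EPI and 0.96 points in MES, here with all of the MES controls. From the summed reads, its log2 odds changed by 1.48 in EPI and 0.29 in MES. The difference in log odds did not pass after adjustment (unadjusted p = 0.025, FDR 0.66, quasi-binomial test). For the CLSTN1 30 nt exon the changes were 6.2 and -2.1 points (unadjusted p = 0.0083, FDR 0.66), and for the APLP2 Kunitz exon -14.2 and -11.2 points (unadjusted p = 0.43, FDR 0.80), both by the same quasi-binomial test with limma-moderated dispersion. A difference between the states was therefore not shown for any of these exons.

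The exons whose PSI over the 11 libraries followed the CLSTN1 57 nt exon most closely were sought among 1823 skipped-exon events of other genes that ranged over at least 30 points. The first 5, with 1 event per gene, were a 289 nt exon of CTNND1, which codes for the cadherin partner p120-catenin (Pearson r = 0.987), a 96 nt exon of IQSEC2, an exchange factor for ARF GTPases (0.983), an 87 nt exon of ABI1, a part of the WAVE complex (0.979), a 27 nt exon of the kinase MARK3 (0.978) and an 87 nt exon of NFYA, a subunit of a CCAAT-binding factor (0.972). All points share the same libraries and groups, so these values describe a shared order of the groups. The mean PSI of the CTNND1 exon was 21.9% in EPI controls, 42.9% in EPI knockdown, 91.2% in MES controls and 87.1% in MES knockdown.

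**Figure D3:**
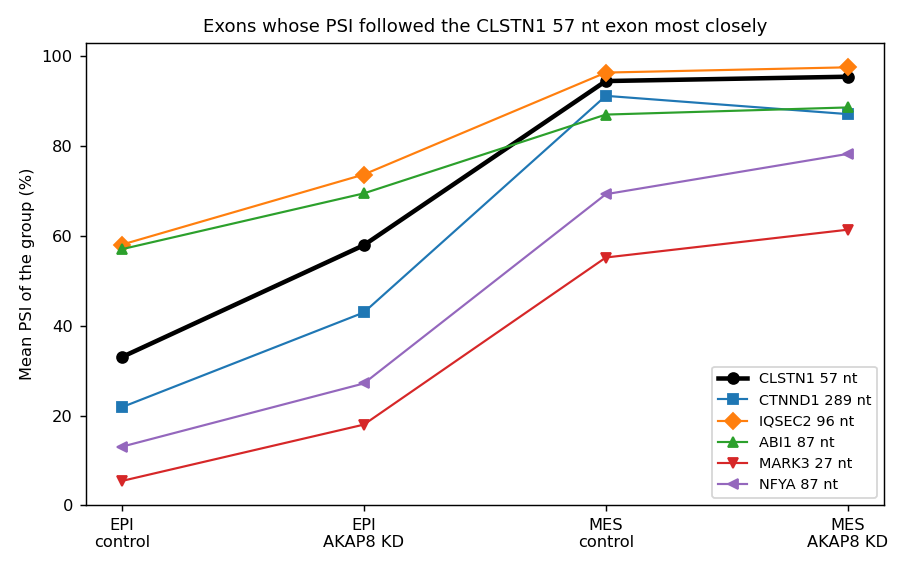
Mean PSI of each group in percent (y axis) over the 4 RNA-seq groups (x axis) for the CLSTN1 57 nt exon, as a thick line, and the 5 exons of other genes with the most similar PSI over the 11 libraries. In all 6 exons the mean is lowest in EPI controls, higher in EPI knockdown and higher again in MES controls. The 5 were chosen for this likeness, so a shared order was built into the choice.

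The RNA level of the 3 genes was described with the same scaled junction reads. These values cannot separate fewer cells from less RNA per cell, change with splicing, and are compared only within a gene. None of the 3 genes was called at a log2 fold change over 1 with an adjusted p under 0.05 in any comparison, where 0.189% of 9014 genes were called after knockdown in EPI, 2.27% after knockdown in MES and 12.5% between the states. At an unadjusted p under 0.05 there were 1 after knockdown in EPI, 1 after knockdown in MES and 2 between the states, by limma, the tool used for gene levels throughout. The share of all genes with such a p, or with groups that do not overlap, was not computed. Non-overlap of gene levels is therefore given below only as a description of these libraries.

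CLSTN1 was at 5727, 7085 and 5939 scaled reads in EPI controls and at 7495, 11130 and 7604 after knockdown, and the groups did not overlap. The log2 fold change was 0.47 ± 0.17 (SE, adjusted p = 0.38, limma), and without the second EPI knockdown library, the highest of the 3, it was 0.28. In MES it was at 5441, 6329 and 5210 in controls and at 8011 and 9379 after knockdown (0.62 ± 0.19, adjusted p = 0.085, and 0.012 to 0.039 in 3 alternative fits, still under the fold cutoff). In order of mean level the groups were EPI knockdown at 8743, MES knockdown at 8695, EPI controls at 6250 and MES controls at 5660, and the first pair and the last pair overlapped. With the called exons left out of the sums the fold changes were 0.43 and 0.61.

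APP stood at 23671, 28589 and 28166 scaled reads in EPI controls and at 16376, 22121 and 19597 in MES controls. Every MES control was below every EPI control, with a log2 fold change of -0.47 ± 0.18 (SE) that did not pass the test (adjusted p = 0.070, limma). In 4 alternative fits its adjusted p was 0.0081 to 0.024, with the fold change still under the cutoff. After knockdown its log2 fold change was 0.22 in EPI and 0.21 in MES, with overlapping groups.

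APLP2 stood at 12218, 14980 and 12793 scaled reads in EPI controls and at 10199, 10976 and 9496 in MES controls, again without overlap (log2 fold change -0.38 ± 0.17, adjusted p = 0.13, limma, and 0.011 to 0.036 in 3 alternative fits, under the fold cutoff). After knockdown it was at 9146, 14872 and 10978 in EPI and at 10175 and 10304 in MES, and both groups overlapped their controls. For all 3 genes the second EPI knockdown library was the highest of its group.

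**Figure D4:**
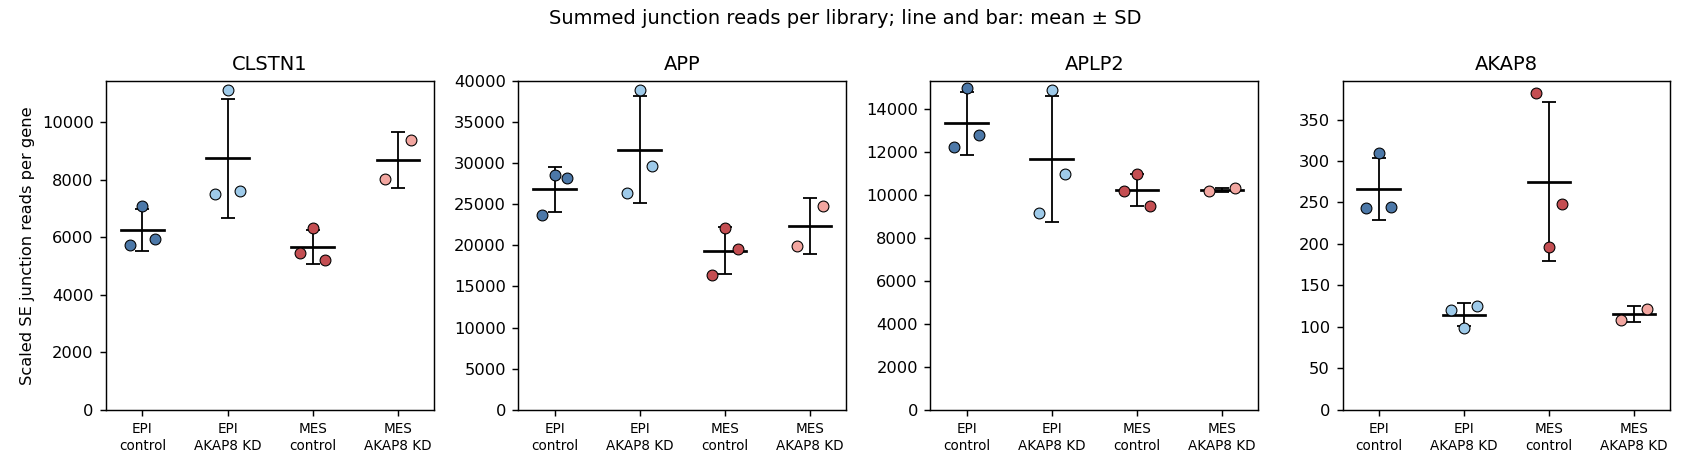
Scaled skipped-exon junction reads per gene (y axis, from 0) for CLSTN1, APP, APLP2 and the knockdown target AKAP8, with a point per library, a line for the mean and a bar for the SD of each of the 4 groups (x axis). AKAP8 knockdown libraries lie between 98.8 and 125 scaled reads, below every control, and CLSTN1 knockdown libraries lie above the controls of their state.

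Among the genes whose log2 level over the 11 libraries was most like that of each member, of 9013 ranked, were, as a description, HYOU1 and HABP4 for CLSTN1 (Pearson r = 0.953 and 0.946), PTPRF, KIF3C and BAZ2A for APP (0.979, 0.960 and 0.951), and FEZ1, LGMN and GEMIN8 for APLP2 (0.952, 0.950 and 0.945).

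Genes that act with the 3 members were taken from a list of 42, of which 29 could be tested. After AKAP8 knockdown none of the 29 was called by limma in either state, and 4 in EPI and 9 in MES had an unadjusted p under 0.05. The share of all genes at that unadjusted p was not computed. At an adjusted p under 0.05 alone, 0.255% of all genes passed in EPI and 4.16% in MES, and none of the 29. Between the states 8 were called, 7 of them higher and 1 lower in MES, beside 12.5% of all genes tested, and the median log2 fold change was 0.20 for the 29 and 0.01 for all genes. None of the 5 tested genes of kinesin-1 and its linkers was called. The beta-secretase BACE1 (log2 fold change 0.84 ± 0.27, adjusted p = 0.038, limma) and RTN3 (0.91 ± 0.15, adjusted p = 0.00093, limma), named after their values were seen, passed the adjusted p but not the fold cutoff.

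Of the 3 alpha-secretases, ADAM9 rose from 12380 ± 2708 to 33188 ± 5194 scaled reads (SD, n = 3), a log2 fold change of 1.44 ± 0.22 (SE). The gamma-secretase subunit APH1B rose by 1.39 ± 0.27 on the log2 scale, and was the only 1 of 5 tested subunits that was called. The APP relative APLP1 rose from 32.0 ± 6.4 to 206 ± 81 scaled reads, which rests on few reads. Among cytoplasmic adaptors that bind the APP tail, APBB1 rose by 1.56 ± 0.24 and DAB2 by 1.63 ± 0.26. Of the sorting and processing genes, the endocytic receptor LRP1 rose by 2.497 ± 0.30 and ITM2C, whose product binds APP, by 1.61 ± 0.25, while the sorting receptor SORL1 fell by 1.74 ± 0.21. All 8 had adjusted p values between 5.5e-05 and 0.0025 (limma), with 3 libraries in each group.

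AKAP8 peaks were read from the 2 lists, 1 for each state, that merge the replicates. A peak was taken as high-confidence at a log2 of IP over input of at least 2 and a −log10 adjusted p of at least 3, on the strand of the gene. In EPI the 3 genes held 6 such peaks, 2 in CLSTN1, 3 in APP and 1 in APLP2, and in MES 1, in APLP2. A high-confidence peak was present in 20.2% of 9193 genes with skipped-exon events in EPI and 12.4% in MES, and in 23.6% and 15.6% of the 2385 that are 76 to 300 kb long, a span that holds the 3 members. The values are those of the merged lists and have no replicate spread.

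The CLSTN1 peak in intron 10 (chr1:9797775-9797856, minus strand) ended 162 nt upstream of the 57 nt exon, with a log2 of IP over input of 2.26 and a −log10 adjusted p of 3.57, above the threshold but low in the list, where 5.07% of peaks had a lower log2. It is shown because it was the peak nearest to an exon that differed. Capitals mark runs of 3 or more G with an A or a T directly before and directly after, searched on the RNA strand.
CLSTN1 intron 10 peak: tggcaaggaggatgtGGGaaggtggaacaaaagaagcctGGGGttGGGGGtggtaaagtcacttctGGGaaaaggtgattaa

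The 82 nt of this peak held 4 such runs. Of 1159 windows of 82 nt that tile CLSTN1, 44.8% held at least 1 run and 6, or 0.518%, held 4 or more, and of the 21665 high-confidence EPI peaks 84.6% held at least 1. The study derived this pattern of G runs from the same eCLIP peaks, and it already reported such runs at this site. The share of peaks with a run and the count in this peak are therefore not independent evidence of binding. A match of these letters is a description of the sequence. The MES list held no peak over CLSTN1, and the difference between the states was not tested. The study reports AKAP8 binding upstream of this exon in both states, more intense in EPI, so absence from the list is not absence of binding. It also calls the site upstream of this exon the most enriched, while by log2 this peak stood low in the merged list. In its RNA pull-down AKAP8 bound a sequence from this site and not a mutated form.

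The other peaks lay in first introns, far from the alternative exons. In CLSTN1 the EPI peak with the highest log2 of the 3 genes, at 3.78 (chr1:9883535-9883640, minus strand), lay 60 nt after exon 1. In APP, 3 EPI peaks lay 318 to 1020 nt after exon 1, with a log2 of 2.18 to 3.08. The strongest of them (chr21:27541769-27541861, minus strand) overlapped by 76 nt a MES peak at a log2 of 1.55, below the threshold. In APLP2 the EPI peak at a log2 of 3.14 (chr11:129940817-129940910, plus strand), 839 nt after exon 1, overlapped by 81 nt the MES peak at 2.38, and was the only high-confidence peak found in both states in these genes. These peaks are shown with G runs of the same kind in capitals.
APP intron 1 peak: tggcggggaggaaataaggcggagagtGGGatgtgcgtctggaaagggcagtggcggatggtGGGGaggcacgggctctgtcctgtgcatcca
APLP2 intron 1 peak: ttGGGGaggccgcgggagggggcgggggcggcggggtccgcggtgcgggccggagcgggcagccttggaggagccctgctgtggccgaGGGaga

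No peak in either list fell in the introns beside the Kunitz exon of APLP2 or the exons 7, 8 and 15 of APP. Over APLP2 a further MES peak in intron 1 was below the threshold (log2 1.87), and upstream of CLSTN1 an EPI peak 301 nt before the gene start was as well (−log10 adjusted p 1.25).

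**Figure D5:**
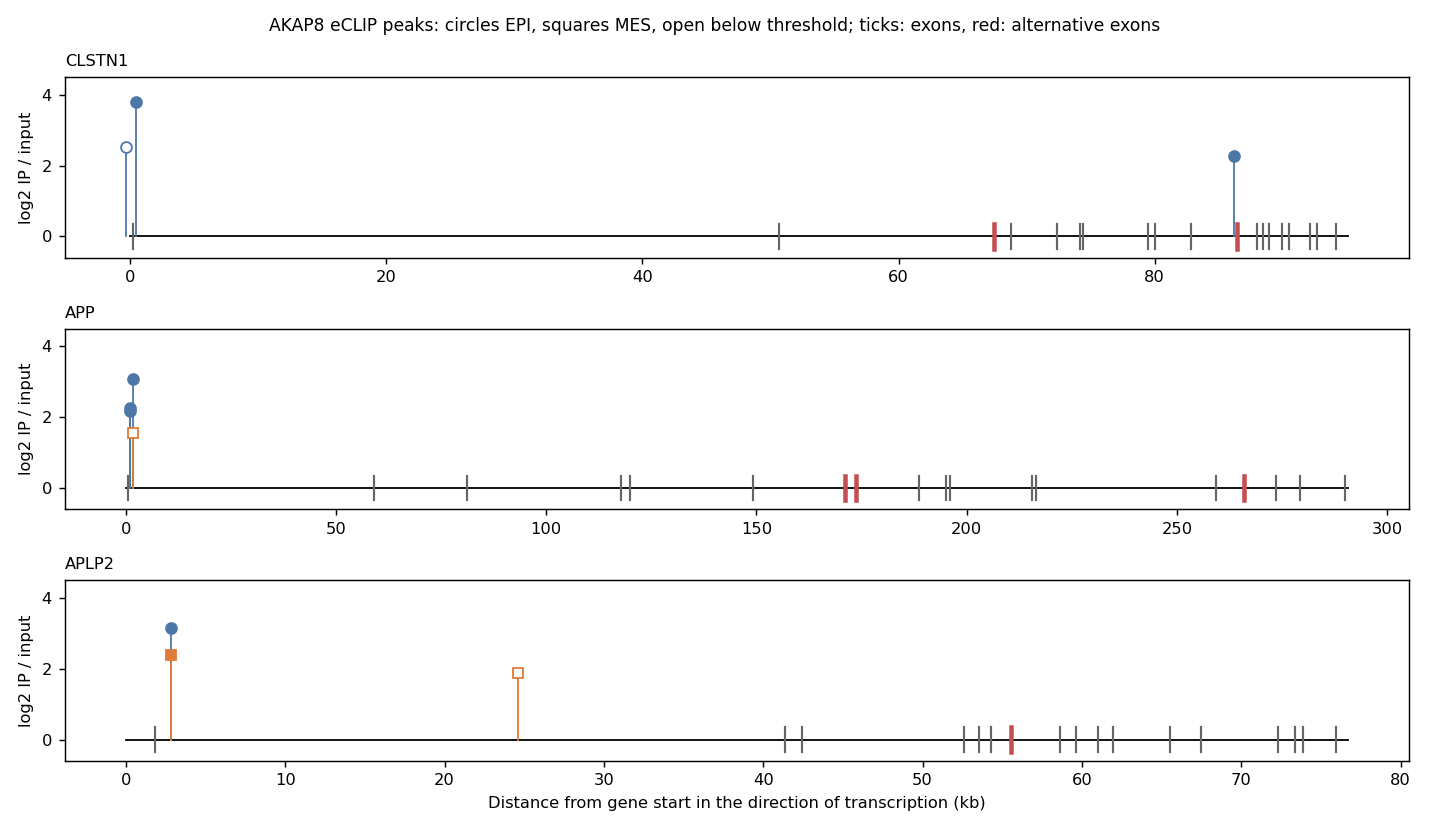
AKAP8 peaks over CLSTN1, APP and APLP2 by distance from the gene start in kb (x axis, drawn to scale in each panel) and log2 of IP over input (y axis), with circles for EPI and squares for MES and open symbols for peaks below the threshold. Ticks are exons of the canonical transcript, red for alternative exons described here, and only the CLSTN1 peak at a log2 of 2.26 stands beside such an exon.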

How the data were processed

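RNA-seq and eCLIP files were used as the authors deposited them. Per the submitters' processing notes and the study's methods, STAR placed the stranded paired-end poly(A) reads on GRCh37, and rMATS, run by the authors, counted those over splice junctions. The 15 deposited tables give inclusion and skipping read counts of every library for 5 event types in 3 comparisons. The libraries of a group stand in an unnumbered list, named here by their place. Not used were 30 columns of per-sample PSI, the columns of p-values, FDR and PSI differences, which hold the authors' own tests, and a gene table made with featureCounts and DESeq2, which holds only log2 fold changes and q-values of the authors' own comparisons. The eCLIP lists, made by the authors by merging the 2 replicates of a state against size-matched input, hold the deposited −log10 adjusted p and log2 of IP over input of each peak, and genes and exons were located with the Gencode v44lift37 annotation, newer than that of the authors. Sequences were read from the GRCh37 genome.

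PSI was recomputed from the reads and effective lengths. A mean of 20 junction reads in a library was the minimum for an event, and the test was a quasi-binomial likelihood-ratio F test, with the dispersion moderated by squeezeVar of limma 3.58.1 in R 4.3.3 (robust trend on the reads of the rarer form, at least 1), and p-values adjusted by Benjamini-Hochberg within event type and comparison. Gene levels were the junction reads of the 33107 skipped-exon events in all 3 tables, summed per gene, divided by median-of-ratios size factors and tested with limma-trend on log2(value + 1) in all 11 libraries, for genes at 10 or more in at least 2 libraries. The summed values count a read more than once where events share a junction. Library totals are in the report. Both tests were also run on simulated reads. The spread there was the fitted one for events and a fixed one for genes, so these runs do not check that spread. Exact permutation of 3 against 3 libraries cannot give a p below 0.1, nor 2 against 2 below 0.333, so only tests across all events or genes are given.

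Groups came from the sample labels and the names of the tables. Named were known alternative exons recognised by length, every called event, for each gene and comparison the event with the largest difference, the 5 exons and 3 genes with the highest Pearson r, and the called pathway genes. One gene that this rule names is not reported here. The 153 nt exon and exon 14 of APLP2 and the minor CLSTN1 events were added after their values were seen. The genes, exons and gene lists were chosen with earlier results of these data known. Alternatives were the dispersion trend, limma on the logit of PSI, read minimum, difference cutoff, length correction, scaling, pseudocount, filter, peak threshold and overlap, leaving out each library, and a replicate block by place in the list.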

Additional observations from a re-analysis of the deposited data

How the results depend on the processing

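Of 88 alternative values for the counts of called events, called genes and peaks, 77 stayed within 1.5 times the value reported. With limma on the logit of PSI, 0 events of the 3 genes were called after knockdown in EPI and 0 in MES. Leaving out each library in turn gave 0 to 1 called events after knockdown in MES, the lower value arising when the first MES control or the first MES knockdown library was dropped. The tables number no library, so place in the list stood in for the replicate number in a block. With this replicate block the count in MES was 0, and in EPI and between the states the block changed no event call of the 3 genes. Libraries at the same place deviated together in EPI (r = 0.44, 0.74 and 0.68), less so in MES (0.24 and 0.07) and between the states (0.08, 0.33 and 0.40), and pairing was not assumed. All peaks in the lists gave 3 MES peaks and 2 EPI peaks shared with MES, and a log2 of at least 3 gave 3 EPI, 0 MES, 0 shared and 3 peaks in all. Over all genes, 28 skipped exons were called after knockdown in EPI and 21 in MES, against 46 and 46 with the dispersion trend on all reads, 0 and 0 with limma on the logit of PSI, 30 and 4 with the block, and 16 to 31 and 5 to 17 with 1 library left out. Small differences that were not called changed sign when a library was left out. These were the 36 nt exon of APLP2 (-0.91 to 0.82 points) and the 57 nt exon of APP next to the Kunitz exon (-0.24 to 1.5) after knockdown in EPI, the 30 nt exon of CLSTN1 (-9.1 to 1.6) and the Kunitz exon of APP next to the 57 nt exon (-0.19 to 0.27) after knockdown in MES, and the 54 nt exon of APP between the states (-0.28 to 0.23). The log2 fold change of APLP2 after knockdown in MES was -0.12 with scaling by total reads, -0.031 with the block and -0.047 to 0.057 with 1 library left out. Scaling by total reads moved the median of all genes to -0.13 after knockdown in MES and -0.10 between the states, and with it APP and APLP2 had an adjusted p of 0.0081 and 0.011 between the states. Without the second EPI knockdown library these were 0.021 and 0.027, and 0.012 for CLSTN1 after knockdown in MES. With only the 2 groups compared in the fit they were 0.024, 0.036 and 0.028, and with the block APP had 0.015 and CLSTN1 0.039, all at fold changes under the cutoff. The smallest FDR of a named exon for the difference of the knockdown between the states was 0.61 to 0.81 over 12 alternatives. The causes were not tested.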
